A study of Mus musculus with 24 samples.

Results

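The insulin-like growth factor (IGF) system of mouse myotubes was described through 10 genes, chosen by name: the ligand genes Igf1 and Igf2, the receptor genes Igf1r and Igf2r, the binding protein genes Igfbp2, Igfbp3, Igfbp4, Igfbp5 and Igfbp7, and H19, the non-coding neighbour of Igf2. They are 10 of the 55487 genes listed, and all 10 were among the 14541 genes tested, those with 10 or more normalized counts in 6 or more of the 24 libraries. The libraries hold mRNA of C2C12 cells, an established mouse skeletal muscle line labelled wild type, which were differentiated to myotubes under 5 % O2 and labelled as day 5. All cultures were then kept for 2 h under 5 % or 1 % O2. They had no stimulation (5 % CTRL and 1 % CTRL) or bouts of electrical stimulation under the same gas (5 % STIM and 1 % STIM). The study's methods place the 2 h before stimulation, so stimulated cultures may have spent longer under their gas than unstimulated ones. Each of these 4 groups has 6 libraries, described as biological replicates of this single line, so p-values measure the spread between cultures of 1 line. The study describes the stimulated myotubes as sampled right after stimulation. The culture medium, which contained horse serum, was renewed before and after stimulation, and the sources used here do not say whether unstimulated cultures were treated alike. The study asked how little O2 changes the response of muscle cells to contraction.

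IGF1 and IGF2 are secreted peptides that act on muscle cells mainly through IGF1R, a receptor tyrosine kinase that signals through IRS adaptors and the PI3K-Akt pathway. In myoblasts both promote differentiation and growth. IGF2R, which is also the cation-independent mannose 6-phosphate receptor, binds IGF2 and carries it to lysosomes without such signalling. The binding proteins hold IGFs outside cells and are themselves cut by proteases such as PAPP-A. H19 is a non-coding RNA made from the maternal chromosome, next to Igf2, which is made from the paternal one. It is also the host transcript of the microRNA miR-675.

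Libraries held 26541858 to 28173745 reads, and the authors' size factors were 0.955 to 0.992 under 5 % O2 and 1.02 to 1.05 under 1 % O2. All 11 myotube markers examined were expressed. The summed normalized count of 3 hepatocyte markers was at most 1.02, that of 4 adipocyte markers at most 7.22 and that of 4 endothelial markers at most 25.7 in any library. Of 4 macrophage markers, Ptprc and Adgre1 were at or near 0, and the other two were low. Csf1r had a median of 13.3 and Itgam of 16.1 counts over the libraries. Both were lower in 1 % CTRL than in 5 % CTRL (log2 fold changes of -0.58 and -0.49, adjusted p = 0.0431 and 0.0257 from limma). The summed count of the myotube markers was 482185 to 530229 in 5 % CTRL and 425510.0 to 465649 in 1 % CTRL, with 433495 to 503002 in 5 % STIM and 418101 to 463609 in 1 % STIM. That of 4 markers of reserve myoblasts was 1174 to 1305 in 5 % CTRL and 1092 to 1233 in 1 % CTRL, with 883 to 926 in 5 % STIM and 1072 to 1125 in 1 % STIM. These 4 genes did not move together with stimulation under 5 % O2. Myf5 had a log2 fold change of 0.38, while Spry1 had -1.19, Pax7 -0.38 and Heyl -0.36 (adjusted p at most 0.000866 from limma). Markers of cycling cells summed to 2741 to 3181 in 5 % CTRL and 3046 to 5049.7 in 1 % CTRL, with 3071 to 3642 in 5 % STIM and 3286 to 4186 in 1 % STIM. Within these sums genes went opposite ways with low O2 at rest, since Myf5, Pax7 and Top2a rose by 0.63, 0.69 and 0.74 on the log2 scale while Spry1, Heyl and Ccnb1 fell by 0.35, 0.59 and 0.50 (adjusted p at most 0.000233 from limma). Of the myotube markers, Myog, Actn2, Myh3, Myh8, Ttn, Ckm and Tnnt3 fell, from 0.66 for Myog to 0.09 for Tnnt3 (adjusted p at most 0.0134 from limma). Cav3 rose by 0.24 (adjusted p = 0.00328 from limma), and Acta1, Des and Mymk were not called. The part of these shifts in the changes below was not tested, and in bulk RNA fewer cells of a type and less RNA per cell cannot be told apart. Replicate 1 of 1 % CTRL stood apart from the other libraries, with a slope of log2 count on log2 exon length of 0.0945 against at most 0.055 elsewhere, and results that turn on it are given without it as well.

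Promoter sequence from RefSeq (build GRCm38.p6, 250 bases before to 50 after a transcript start) was found for 9 of the 10 genes, in 13 windows. Those of Igf1, Igf1r and Igfbp5 are shown because these 3 genes had the highest absolute log2 fold changes of the 10 between O2 levels at rest. H19 is named only. Capitals mark the core letters ACGTG or GCGTG of the hypoxia-inducible factor motif on either strand (CACGT or CACGC where the core is on the other strand). The windows surround RefSeq starts, which differ from the annotated gene ends given below, and lie at chr10:87860861-87861160, plus strand, at chr7:67952007-67952306, plus strand and at chr1:72874816-72875115, minus strand.
Igf1: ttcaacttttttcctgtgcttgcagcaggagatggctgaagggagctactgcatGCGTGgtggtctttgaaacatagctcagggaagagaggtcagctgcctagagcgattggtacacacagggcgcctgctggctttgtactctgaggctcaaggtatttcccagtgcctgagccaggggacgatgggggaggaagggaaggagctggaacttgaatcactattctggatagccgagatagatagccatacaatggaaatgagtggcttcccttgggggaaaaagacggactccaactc
Igf1r: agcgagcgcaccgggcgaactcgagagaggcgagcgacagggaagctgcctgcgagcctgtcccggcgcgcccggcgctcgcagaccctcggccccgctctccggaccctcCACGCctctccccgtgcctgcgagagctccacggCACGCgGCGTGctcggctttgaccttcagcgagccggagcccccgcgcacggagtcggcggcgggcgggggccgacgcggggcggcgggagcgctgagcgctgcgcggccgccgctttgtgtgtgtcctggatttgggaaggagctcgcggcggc
Igfbp5: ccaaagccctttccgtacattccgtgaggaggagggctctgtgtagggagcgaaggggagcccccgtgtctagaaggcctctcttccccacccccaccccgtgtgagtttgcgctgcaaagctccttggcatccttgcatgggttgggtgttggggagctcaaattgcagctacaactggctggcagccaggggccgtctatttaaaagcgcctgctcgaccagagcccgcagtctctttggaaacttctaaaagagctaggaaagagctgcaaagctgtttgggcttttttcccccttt
One of these cores stood in the window of Igf1 and 3 stood in that of Igf1r, while the letters were not in the Igfbp5 window. Of the 13 windows, 8 (of 7 genes) held ACGTG or GCGTG, as did 43.8 % of the 32851 promoter windows of the same length. ACGTG alone stood in 4 windows (19.6 % of all) and GCGTG in 7 (32.4 % of all). The myogenic E-box CAGCTG, counted on both strands, stood in the window of Igf1, as in 16.3 % of all windows. The AP-1 letters TGANTCA stood in the windows of Igf1 and of 1 start of Igfbp2 (7.81 % of all), and the cyclic AMP response core TGACGT, which can share letters with ACGTG, stood in that of Igf2r (7.51 % of all). A match is a description of the letters and not of binding.

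Low O2 went with less RNA of both ligands, of Igf2r, and of Igfbp4 and Igfbp5, and with more RNA of Igf1r, both at rest and with stimulation. Between 1 % CTRL and 5 % CTRL, 6 of the 10 genes had an adjusted p under 0.05 in limma, 1 higher and 5 lower, beside 59.9 % of all genes tested in either direction and 30.5 % lower. The same 6 genes also had libraries that did not overlap between the groups, against 38.2 % of genes tested. Between 1 % STIM and 5 % STIM, 8 of the 10 were called, 2 higher and 6 lower, beside 57.4 % of all genes in either direction and 28.4 % lower. There, 6 of the 10 did not overlap between groups, against 37.3 % of genes tested. The share of the 10 genes called at rest was close to that of all genes. Their median log2 fold change was -0.19 at rest and -0.17 with stimulation, where that of all genes tested was 0.0015 and -0.00083. Comparisons that have a group in common share its libraries, so their values are set side by side and do not stand as independent evidence. Stimulation under 5 % O2 called 1 of the 10, Igf2, against 21.4 % of all genes, and none of the 10 separated its groups of libraries, against 11.1 % of genes tested. Stimulation under 1 % O2 called 0 of the 10 in limma, 2 at an unadjusted p under 0.05 and 0 in edgeR, DESeq2 and limma voom, against 22.3 % of all genes. Again none of the 10 was free of overlap, where 11.2 % of genes tested were. The interaction, which is the response to stimulation under 1 % O2 minus that under 5 % O2, called 0 of the 10 in limma, 2 at an unadjusted p under 0.05 and 0 in edgeR, DESeq2 and limma voom, against 11.3 % of all genes. Rescaling the libraries to the same total moved the median of all genes by at most 0.0805 on the log2 scale, and the share of calls that were higher from 49.05 % to 62.77 % for O2 at rest, from 50.44 % to 63.25 % for O2 with stimulation, from 44.04 % to 62.18 % for stimulation under 5 % O2 and from 51.40 % to 62.34 % for stimulation under 1 % O2.

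**Figure D1:**
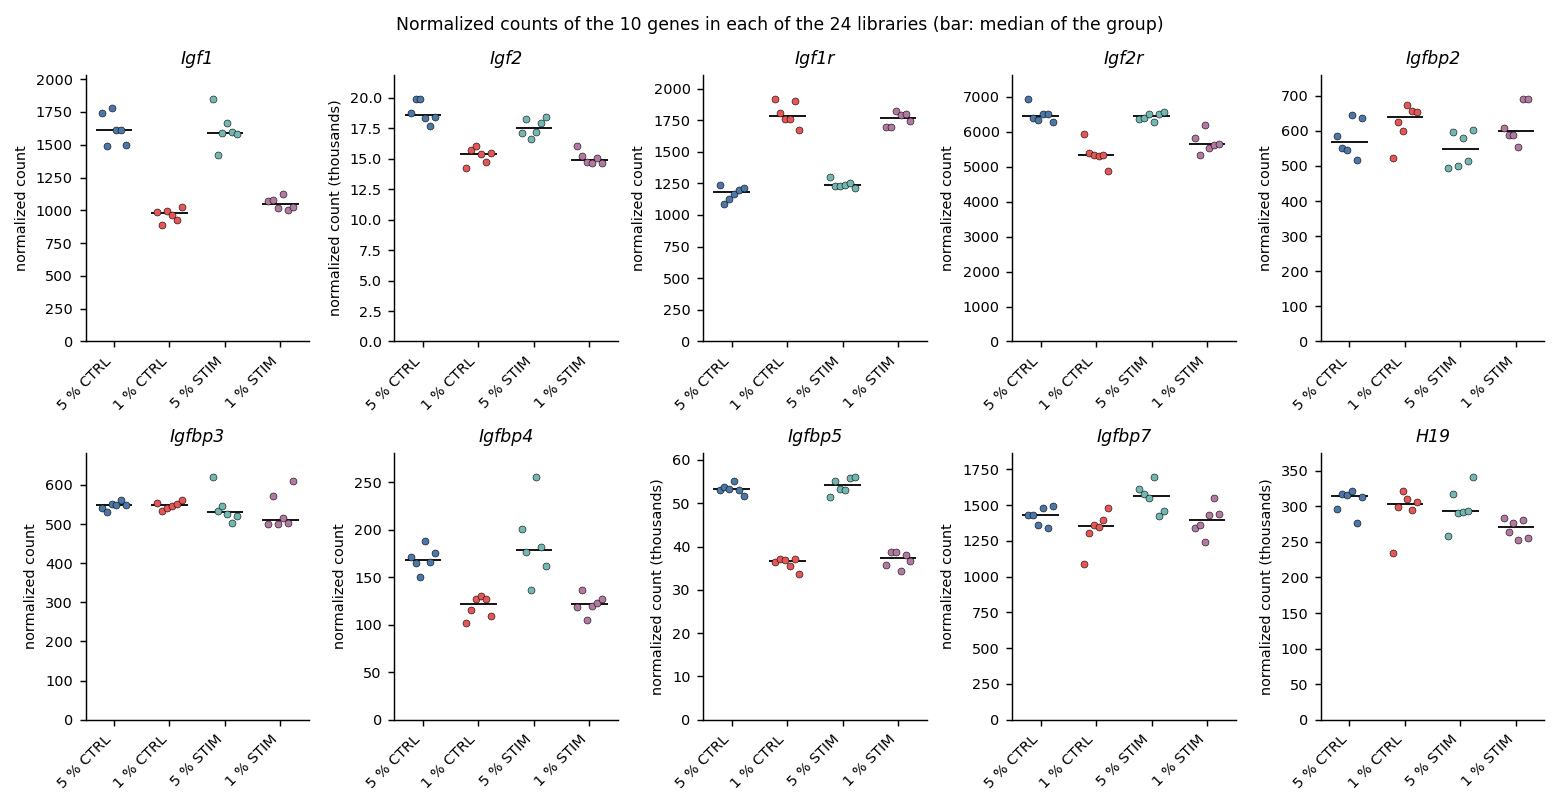
Normalized counts (vertical axis, each panel with its own scale) of the 10 genes in the 6 libraries of each group, with a bar at the median. Igf1, Igf2, Igf1r, Igf2r, Igfbp4 and Igfbp5 separate by O2 and not by stimulation, and 1 library of 1 % CTRL lies low for H19 at 234489 counts.

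**Figure D2:**
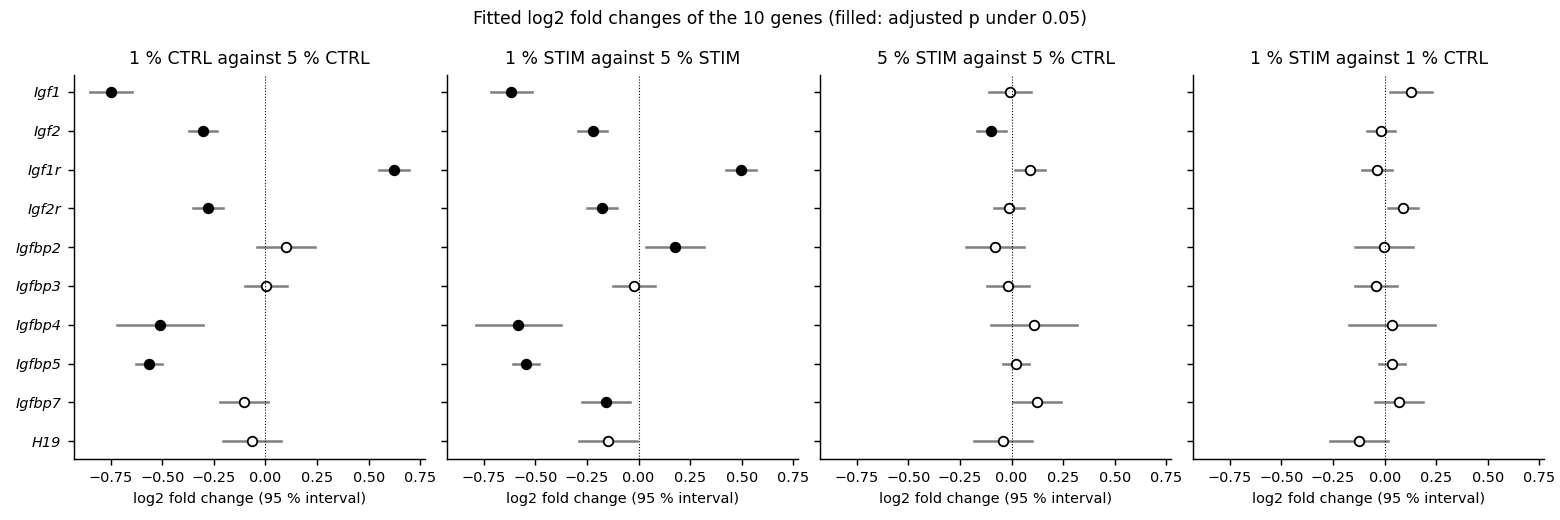
Fitted log2 fold changes (horizontal axis) with 95 % intervals of the 10 genes in the 4 comparisons between groups, with filled points at an adjusted p under 0.05. The O2 comparisons hold 6 and 8 filled points and the stimulation comparisons 1 and 0.

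Igf1, which encodes the growth factor that muscle also makes for itself, lies on chromosome 10 from 87858265 to 87937042 on the plus strand (GRCm38). Its normalized count ran from 1489 to 1777 with a median of 1615 in 5 % CTRL and from 891 to 1024 with a median of 977 in 1 % CTRL. With stimulation it ran from 1420.5 to 1851 with a median of 1593 in 5 % STIM and from 999 to 1123 with a median of 1048 in 1 % STIM. Every library under 1 % O2 lay below every library under 5 % O2. All changes given below are log2 fold changes fitted to log2(normalized count + 1), and each response to low O2 is 1 % minus 5 % O2 and each response to stimulation is stimulated minus unstimulated. The log2 fold change for low O2 was -0.75 (standard error 0.05, adjusted p = 6.79e-15 from limma) at rest, a fold of 0.595, and -0.62 (standard error 0.05, adjusted p = 1.22e-12 from limma) with stimulation, a fold of 0.653. For stimulation the log2 fold change was -0.01 (95 % interval -0.11 to 0.09, adjusted p = 0.947 from limma) under 5 % O2, where the groups overlapped. Under 1 % O2 all 6 stimulated libraries lay above the mean of 1 % CTRL, although the groups overlapped, with a log2 fold change of 0.13 (95 % interval 0.03 to 0.23, adjusted p = 0.0651 from limma). That value passed the threshold when the libraries were rescaled to the same total (0.15, adjusted p = 0.0285 from limma), when the 2 groups were fitted alone (adjusted p = 0.0373) and without replicate 6 of 1 % CTRL or replicate 1 or 2 of 5 % STIM (adjusted p down to 0.0413).

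Igf2, the fetal growth factor gene that differentiating myoblasts express strongly, lies on chromosome 7 from 142650766 to 142666816 on the minus strand. Counts were 17692 to 19933 (median 18584) in 5 % CTRL and 14231 to 16046 (median 15431) in 1 % CTRL. After stimulation they were 16632 to 18433 (median 17572) in 5 % STIM and 14623 to 16094 (median 14923) in 1 % STIM. The libraries under 1 % O2 were lower and did not overlap with those under 5 % O2 in either comparison. Igf2 fell by 0.30 on the log2 scale at rest (standard error 0.03, adjusted p = 1.87e-09 from limma) and by 0.22 with stimulation (standard error 0.03, adjusted p = 8.98e-07). It was the 1 member called for stimulation under 5 % O2, with a log2 fold change of -0.10 (95 % interval -0.17 to -0.03, adjusted p = 0.0363 from limma), and all 6 stimulated libraries lay below the mean of 5 % CTRL. The call was lost with edgeR (adjusted p = 0.0515), after rescaling to the same total (adjusted p = 0.154) and without any 1 of 6 libraries, which are replicates 1, 2 and 3 of 5 % CTRL and replicates 1, 3 and 4 of 5 % STIM, with an adjusted p of up to 0.108. Under 1 % O2 the log2 fold change for stimulation was -0.02 (95 % interval -0.09 to 0.05, adjusted p = 0.778 from limma). Of the exon sequence of Igf2 in words of 75 bases, 60.7 % is shared with the overlapping genes Gm49394 and Igf2os, so reads can be split between them. Gm49394 itself held 30.5 to 122 normalized counts, or 0.214 % to 0.808 % of the Igf2 count.

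Igf1r, which encodes the signalling receptor, was the member that rose at both O2 comparisons with groups that did not overlap. The gene lies on chromosome 7 from 67952827 to 68233668 on the plus strand. Its counts were 1089 to 1235 (median 1182) in 5 % CTRL and 1676 to 1919 (median 1786) in 1 % CTRL. They were 1215 to 1302 (median 1235) in 5 % STIM and 1696 to 1825 (median 1767) in 1 % STIM after stimulation. The lowest library under 1 % O2 stood well above the highest under 5 % O2. Low O2 raised the log2 count by 0.62 (standard error 0.04, adjusted p = 1.34e-16 from limma) at rest, a fold of 1.54, and by 0.50 (standard error 0.04, adjusted p = 6.36e-14 from limma) with stimulation, a fold of 1.41. For stimulation under 5 % O2 the log2 fold change was 0.09 (95 % interval 0.02 to 0.16, adjusted p = 0.0704 from limma), with all 6 libraries above the mean of 5 % CTRL. That difference passed the threshold after rescaling to the same total (adjusted p = 0.0143 from limma), with the length slope as a covariate (adjusted p = 0.00771) and without replicate 1 of 5 % CTRL (adjusted p = 0.0397). Under 1 % O2 it was -0.04 (95 % interval -0.11 to 0.04, adjusted p = 0.546 from limma), and the interaction was -0.13 (95 % interval -0.23 to -0.02, adjusted p = 0.109 from limma). With the length slope as a covariate, an alternative chosen after seeing the data, the interaction was -0.16 (adjusted p = 0.0169 from limma).

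Igf2r, the clearance and sorting receptor, moved the other way. It lies on chromosome 17 from 12682406 to 12769664 on the minus strand. Counts were 6288 to 6946 (median 6457) in 5 % CTRL and 4885 to 5925 (median 5333) in 1 % CTRL, then 6296 to 6554 (median 6448) in 5 % STIM and 5343 to 6208 (median 5644) in 1 % STIM after stimulation. The groups at 1 % and 5 % O2 did not overlap, although the highest 1 % STIM library lay close to the lowest of 5 % STIM. The log2 fold change for low O2 was -0.28 (standard error 0.04, adjusted p = 2.27e-08 from limma) at rest and -0.18 (standard error 0.04, adjusted p = 5.99e-05 from limma) with stimulation. For stimulation it was -0.01 (95 % interval -0.09 to 0.06, adjusted p = 0.829 from limma) under 5 % O2 and 0.09 (95 % interval 0.02 to 0.16, adjusted p = 0.0704 from limma) under 1 % O2. Replicate 1 of 1 % CTRL was the highest library of its group, and without it the response to stimulation under 1 % O2 was 0.12 (adjusted p = 0.00588 from limma) and the interaction 0.13 (adjusted p = 0.0401). The response also passed the threshold after rescaling (adjusted p = 0.0135), with the length slope as a covariate (adjusted p = 0.0322) and without replicate 2 of 1 % STIM.

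Opposite changes of the receptors showed in their ratio. Per kb of exon, the ratio of Igf2r to Igf1r was 9.38 to 10.6 (median 10.1) in 5 % CTRL and 5.06 to 5.57 (median 5.41) in 1 % CTRL, with 8.81 to 9.73 (median 9.38) in 5 % STIM and 5.59 to 6.18 (median 5.77) in 1 % STIM. The ratio does not depend on the scaling of a library. Libraries at 1 % and 5 % O2 did not overlap in it. The ratio of Igf2 to Igf1 per kb was 18.6 to 23.1 (median 19.5) in 5 % CTRL and 24.9 to 30.6 (median 27.6) in 1 % CTRL, with 16.0 to 22.3 (median 18.8) in 5 % STIM and 22.5 to 26.1 (median 24.9) in 1 % STIM. It was higher under 1 % O2, with no overlap between 1 % CTRL and 5 % CTRL or between 1 % STIM and 5 % STIM, although the lowest 1 % STIM library lay below the highest 5 % CTRL library.

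**Figure D3:**
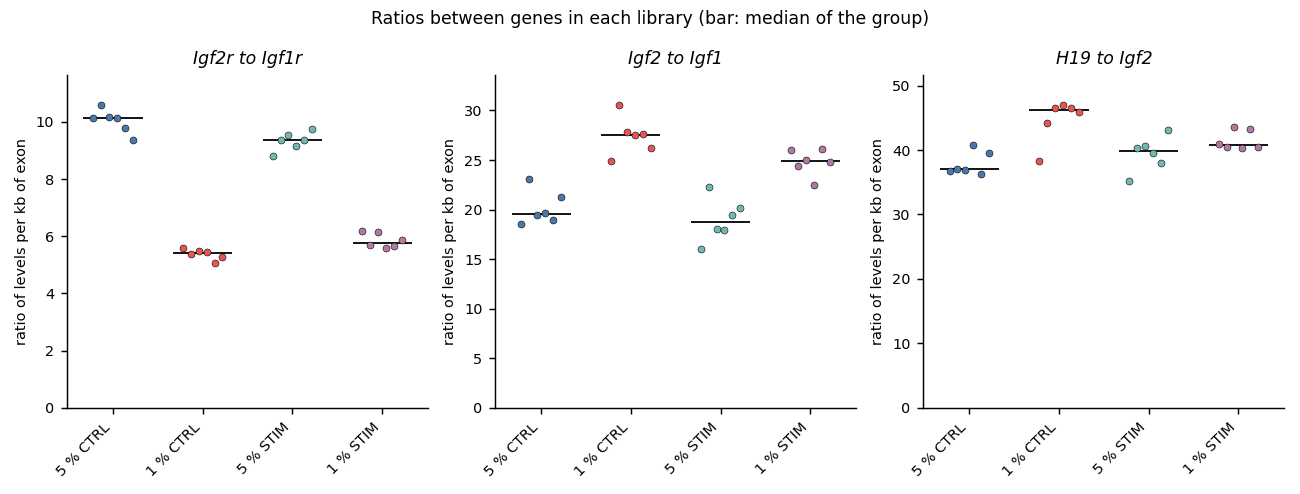
Ratios of levels per kb of exon (vertical axis) between Igf2r and Igf1r, Igf2 and Igf1, and H19 and Igf2 in each library, with a bar at the median of the group. The first ratio is lower in all libraries under 1 % O2, the second is higher without overlap between groups of the same stimulation, and the third overlaps between groups.

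Igfbp5, which encodes the main IGF binding protein secreted by differentiating myoblasts, had the highest count of the binding protein genes. It lies on chromosome 1 from 72857932 to 72874884 on the minus strand, beside Igfbp2. Counts were 51764 to 55111 (median 53248) in 5 % CTRL and 33636 to 37194 (median 36703) in 1 % CTRL, with 51371 to 56038 (median 54319) in 5 % STIM and 34426 to 38843 (median 37422) in 1 % STIM. A wide gap separated the O2 levels at rest and with stimulation. Igfbp5 fell with low O2, with log2 fold changes of -0.56 (standard error 0.03, adjusted p = 3.82e-17 from limma) at rest and -0.55 (standard error 0.03, adjusted p = 1.12e-16 from limma) with stimulation, folds of 0.677 and 0.685. Log2 fold changes for stimulation were 0.02 (95 % interval -0.04 to 0.08, adjusted p = 0.697 from limma) and 0.04 (95 % interval -0.03 to 0.10, adjusted p = 0.453 from limma) under 5 % and 1 % O2. The interaction was 0.02 (95 % interval -0.07 to 0.11, adjusted p = 0.858 from limma). Of the summed level per kb of the 5 binding protein genes, Igfbp5 made up 82.8 % to 84.6 % (median 83.9) in 5 % CTRL and 75.9 % to 81.4 % (median 78.6) in 1 % CTRL.

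Igfbp4, whose protein is a substrate of PAPP-A, was the member with the fewest reads. It lies on chromosome 11 from 99041244 to 99054392 on the plus strand. Its counts were 149.8 to 188 (median 169) in 5 % CTRL and 102 to 130.4 (median 121) in 1 % CTRL, with 136 to 256 (median 179) in 5 % STIM and 105 to 136 (median 122) in 1 % STIM. The groups did not overlap between O2 levels, but the lowest 5 % STIM library and the highest 1 % STIM library nearly met. It fell with low O2, with log2 fold changes of -0.51 (standard error 0.10, adjusted p = 5.5e-05 from limma) at rest and -0.58 (standard error 0.10, adjusted p = 8.88e-06 from limma) with stimulation. The coefficient of variation was 21.9 % in 5 % STIM against 7.42 % from counting alone, and 7.54 % against 7.80 % in 5 % CTRL. Log2 fold changes for stimulation were 0.11 (95 % interval -0.10 to 0.31, adjusted p = 0.504 from limma) under 5 % O2 and 0.04 (95 % interval -0.17 to 0.24, adjusted p = 0.861 from limma) under 1 % O2, and changes of this size were not detectable at this depth and spread.

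Igfbp2 and Igfbp7 passed the threshold for O2 in stimulated cultures and not at rest. Igfbp2, a binding protein with preference for IGF2, lies on chromosome 1 from 72824503 to 72852474 on the plus strand and had 518 to 645 (median 568) in 5 % CTRL and 521 to 673 (median 639) in 1 % CTRL, with 493 to 602 (median 547) in 5 % STIM and 555 to 691 (median 598) in 1 % STIM. All groups overlapped. Its log2 fold change for low O2 was 0.18 (95 % interval 0.04 to 0.32, adjusted p = 0.0275 from limma) with stimulation and 0.10 (95 % interval -0.04 to 0.24, adjusted p = 0.22 from limma) at rest, and the test of the difference between them, the interaction, gave 0.08 (95 % interval -0.12 to 0.28, adjusted p = 0.669 from limma). The call with stimulation was lost without any 1 of 5 libraries, which are replicates 1, 3 and 5 of 5 % STIM and replicates 5 and 6 of 1 % STIM (adjusted p up to 0.0793 from limma), and the value at rest passed without replicate 1 of 1 % CTRL (0.15, adjusted p = 0.0459) and after rescaling (0.18, adjusted p = 0.0267). For stimulation under 5 % O2 the log2 fold change was -0.08 (95 % interval -0.22 to 0.06, adjusted p = 0.441 from limma), which passed with the length slope as a covariate (-0.16, adjusted p = 0.0261 from limma).

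Igfbp7, a secreted protein that binds IGFs weakly, lies on chromosome 5 from 77349240 to 77408041 on the minus strand. Counts were 1340.1 to 1493 (median 1432) in 5 % CTRL and 1089.8 to 1480.3 (median 1354) in 1 % CTRL, with 1427 to 1697 (median 1564) in 5 % STIM and 1242 to 1548 (median 1397) in 1 % STIM, and all groups overlapped. The log2 fold change for low O2 was -0.16 (95 % interval -0.27 to -0.04, adjusted p = 0.0183 from limma) with stimulation and -0.10 (95 % interval -0.22 to 0.01, adjusted p = 0.124 from limma) at rest, and the interaction was -0.06 (95 % interval -0.22 to 0.11, adjusted p = 0.718 from limma). The call with stimulation was lost after rescaling (-0.09, adjusted p = 0.221) and without replicate 4 of 5 % STIM or replicate 3 of 1 % STIM (adjusted p up to 0.0577). All 6 libraries of 5 % STIM lay above the mean of 5 % CTRL, with a log2 fold change of 0.13 (95 % interval 0.01 to 0.24, adjusted p = 0.121 from limma), which passed when those groups were fitted alone (adjusted p = 0.0283) and without replicate 1 of 1 % CTRL (adjusted p = 0.0356). The response to O2 at rest passed without replicate 6 of 1 % CTRL (adjusted p = 0.0423 from limma) and with the length slope as a covariate (-0.13, adjusted p = 0.00266). With single libraries left out it ran from -0.134 to -0.046, with an adjusted p of up to 0.403 from limma. Replicate 1 of 1 % CTRL, at 1089.8, was the lowest library of its group. Of its exon bases, 7.03 % lie over exons of the antisense gene Polr2b, and RSEM at its defaults ignores the strand.

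Igfbp3, the main carrier of IGFs in blood and here a gene of middling level, lies on chromosome 11 from 7206086 to 7213923 on the minus strand. Counts were 532 to 561 (median 548) in 5 % CTRL and 533 to 560.3 (median 548) in 1 % CTRL, with 503 to 619.9 (median 529.9) in 5 % STIM and 501 to 611 (median 509) in 1 % STIM. No comparison called it, and the 95 % interval of the O2 response was -0.10 to 0.10 at rest and -0.12 to 0.08 with stimulation. In the unstimulated groups its coefficients of variation of 1.81 % and 1.72 % lay under the 4.34 % and 4.20 % that counting alone gives, and in the stimulated groups they were 7.55 % and 8.72 %. Igfbp1, its neighbour on chromosome 11 and a known target of low O2 in liver, was listed at 0 in all 24 libraries.

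H19 was by far the most abundant of the 10 and was called in no comparison. The gene lies on chromosome 7 from 142575529 to 142578143 on the minus strand. It took 0.875 % to 1.22 % of the reads of a library and ranked 2 by reads and 3 per kb among genes tested. Normalized counts were 276223 to 321249 (median 314372) in 5 % CTRL and 234489 to 320790.0 (median 302755) in 1 % CTRL, with 258392 to 341021 (median 292743) in 5 % STIM and 253011 to 283650.0 (median 270250.0) in 1 % STIM. All groups overlapped, and the lowest of the 24 values was that of replicate 1 of 1 % CTRL. At rest the log2 fold change for low O2 was -0.06 (95 % interval -0.20 to 0.08, adjusted p = 0.428 from limma), and it was 4.6e-05 without that replicate. With stimulation all 6 libraries under 1 % O2 lay below the mean of 5 % STIM, with a log2 fold change of -0.15 (95 % interval -0.29 to -0.01, adjusted p = 0.0651 from limma). That value passed the threshold with DESeq2 (-0.15, adjusted p = 0.0227), with the 2 groups fitted alone (adjusted p = 0.0358 from limma) and without replicate 1 of 5 % STIM or replicate 1 of 1 % CTRL. For stimulation under 1 % O2 the log2 fold change was -0.12 (95 % interval -0.26 to 0.01, adjusted p = 0.208 from limma), and -0.19 (adjusted p = 0.00904) without replicate 1 of 1 % CTRL. The ratio of H19 to Igf2 per kb was 36.3 to 40.8 (median 37.0) in 5 % CTRL and 38.3 to 47.0 (median 46.2) in 1 % CTRL, with 35.2 to 43.0 (median 39.9) in 5 % STIM and 40.3 to 43.5 (median 40.8) in 1 % STIM. Replicate 1 of 1 % CTRL held the 38.3, and the other 5 libraries of that group lay at 44.3 to 47.0, above all libraries of 5 % CTRL. Once group means were removed, H19 and Igf2 had a Pearson correlation of 0.72 over the 24 libraries, each point being 1 library with 1 scaling for both genes. Other pairs of the 10 genes came close, such as Igf2r and Igfbp7 at -0.70, Igf2 and Igf1r at -0.67 and H19 and Igfbp2 at 0.65. Replicate 1 of 1 % CTRL was the lowest of its group for H19, Igf2, Igfbp2 and Igfbp7 and the highest for Igf1r and Igf2r. None of these correlations was computed without it. The genes of miR-675, inside H19, and of miR-483, inside Igf2, were listed at 0 in these mRNA libraries.

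Levels of different genes were compared as normalized counts per kb of exon. The order by mean over the 24 libraries was H19 at 118759, Igfbp5 at 7524, Igf2 at 2917, Igfbp7 at 1179, Igf2r at 645, Igfbp2 at 321, Igfbp3 at 173, Igf1 at 133, Igf1r at 89.0 and Igfbp4 at 33.7 counts per kb. Neighbours in this order did not overlap over the libraries of a group, with exceptions that depended on O2. Igfbp3 and Igf1 overlapped in 5 % CTRL and 5 % STIM. Igf1 and Igf1r overlapped in 1 % CTRL and 1 % STIM, where the level of Igf1 was 97.4 and that of Igf1r 107 counts per kb at rest. Under 5 % O2 at rest they were 164 and 69.7. Igf2 exceeded Igf1, and Igf2r exceeded Igf1r, in every group.

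**Figure D4:**
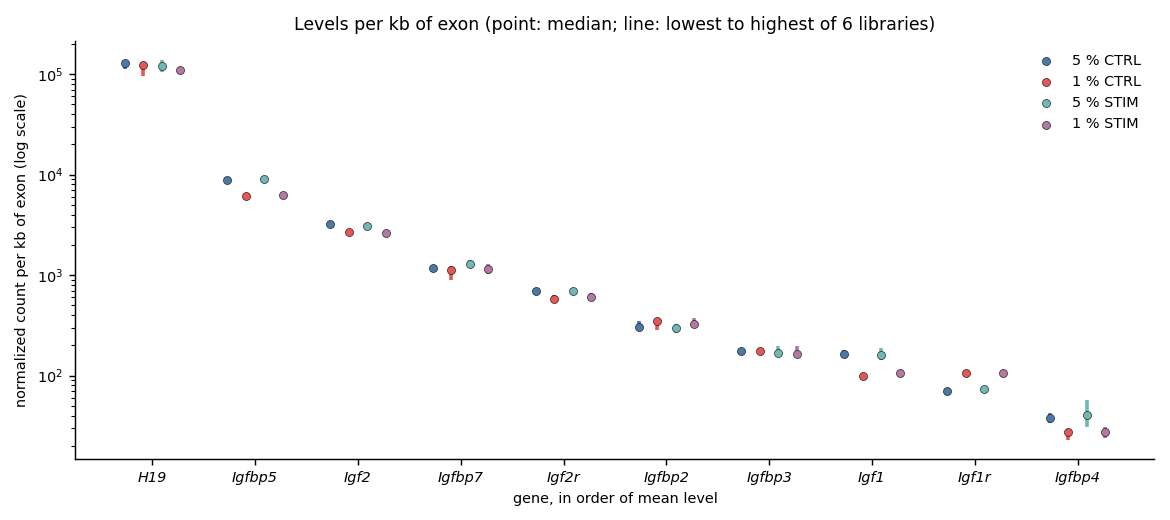
Normalized counts per kb of exon (vertical axis, log scale) of the 10 genes in order of mean level, with the median as a point and the lowest to highest of 6 libraries as a line for each group. Levels run from 33.7 for Igfbp4 to 118759 for H19 on average, and the ranges of Igf1 and Igf1r meet under 1 % O2.

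For the members other than Igfbp3, the 3 genes with the most similar pattern were taken by Pearson correlation of log2(normalized count + 1) over the 24 libraries, which share the 4 groups and their scaling, among genes whose highest group mean was 100 or more. Those of Igf1 were Pstpip2 (r = 0.98), Mob1a (r = 0.98) and Prkg2 (r = 0.97), and those of Igf2 Grwd1 (r = 0.96), Zfp282 (r = 0.95) and Nop2 (r = 0.95). Grwd1 and Nop2, which take part in ribosome production, had lower means under 1 % O2, at 982 against 1547 for Grwd1 at rest. Igf1r was most like Afdn (r = 0.99), Bbx (r = 0.99) and Ankzf1 (r = 0.98), and Igf2r most like Sptbn1 (r = 0.98), Notch2 (r = 0.97) and Akap13 (r = 0.96). Next to Igfbp5 stood Runx2 (r = 0.99), Zfp146 (r = 0.99) and Cnnm4 (r = 0.98), and next to Igfbp4 Cx3cl1 (r = 0.89), Prr5 (r = 0.89) and Gas6 (r = 0.89). H19 was most like Myh7 (r = 0.82), Myh6 (r = 0.82) and Pacsin3 (r = 0.82), the first 2 being slow and cardiac myosin heavy chain genes that lie side by side and are much alike in sequence, so that the assignment of their reads is uncertain. Igfbp2 was most like Polr2e (r = 0.85), Rps9 (r = 0.85) and Uqcc3 (r = 0.83), and Igfbp7 most like Gar1 (r = 0.87), Zfp622 (r = 0.86) and Eif2b2 (r = 0.85).

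Among 8 other ligand, receptor and binding protein genes, 2 were tested. Insr, which encodes the insulin receptor, was higher under 1 % O2 and after stimulation. Its counts were 1229 ± 64.9, 1557 ± 109, 1394 ± 65.8 and 1828 ± 66.9 (SD, n = 6) in 5 % CTRL, 1 % CTRL, 5 % STIM and 1 % STIM. Low O2 gave log2 fold changes in limma of 0.34 (adjusted p = 1.36e-08) at rest and 0.39 (adjusted p = 7.65e-10) with stimulation, and stimulation gave 0.18 (adjusted p = 0.00145) and 0.23 (adjusted p = 5.52e-05) under 5 % and 1 % O2. Igfbp6, another binding protein that prefers IGF2, was not called, with means of 1649 in 5 % CTRL and 1681 in 1 % CTRL. Igfbp1, Ins1, Ins2, Insrr, Igfals and Igfbpl1 were at most 14.1 counts in any library.

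All 6 genes of the list of binding protein proteases and their inhibitors were called for O2 at rest, 3 higher and 3 lower, where 59.9 % of all genes were called, with a list median log2 fold change of 0.03 against 0.0015 over all genes. Pappa, which encodes the protease PAPP-A that cuts IGFBP4 and IGFBP5, fell most. Its counts were 1073 ± 31.0 in 5 % CTRL and 371 ± 36.7 in 1 % CTRL, with 1066 ± 107 in 5 % STIM and 527 ± 54.7 in 1 % STIM (SD, n = 6). The log2 fold change for low O2 was -1.53 (adjusted p = 1.75e-18) at rest and -1.02 (adjusted p = 5.18e-14) with stimulation in limma, and the interaction was 0.52 (adjusted p = 0.000338). Stc1 and Stc2 encode stanniocalcins, which inhibit PAPP-A. Stc1 had 4.95 ± 3.58 in 5 % CTRL and 25.5 ± 3.52 in 1 % CTRL, with 4.93 ± 2.19 and 13.7 ± 7.14 after stimulation. These few counts gave log2 fold changes of 2.39 (adjusted p = 6.45e-07) and 1.20 (adjusted p = 0.00461) for low O2. Stc2 was higher under 1 % O2 at rest and lower under it with stimulation, with means of 378 ± 42.3, 449 ± 43.3, 535 ± 47.8 and 281 ± 5.77 in the order above. Its log2 fold changes were 0.25 (adjusted p = 0.00198) and -0.92 (adjusted p = 9.45e-14), and the interaction was -1.17 (adjusted p = 6.92e-11) in limma. Of the 6 genes, 5 were called for O2 with stimulation, 2 higher and 3 lower, beside 57.4 % of all genes. Stimulation called 2 and 3 under 5 % and 1 % O2, beside 21.4 % and 22.3 % of all genes.

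Of the RNA-binding proteins of Igf2 mRNA, Igf2bp2 had counts of 645 ± 31.4 in 5 % CTRL and 817 ± 36.0 in 1 % CTRL, with 648 ± 35.2 in 5 % STIM and 691 ± 39.5 in 1 % STIM. It rose with low O2 at rest by 0.34 (adjusted p = 7e-08) and gave 0.09 (adjusted p = 0.0855) with stimulation, with an interaction of -0.25 (adjusted p = 0.00892) in limma. Igf2bp3 had 12.4 in 5 % STIM and 24.4 in 1 % STIM, with a log2 fold change of 0.94 (adjusted p = 0.00244), and Igf2bp1 was not tested. At rest Igf2bp3 gave 0.27 for low O2 (adjusted p = 0.387 from limma), and its interaction was 0.67 (adjusted p = 0.262). It rests on few counts, as low as 8.18 in a library.

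In the list of receptor adaptors and PI3K-Akt signalling, 28 of 29 genes were tested and 17 were called for O2 at rest, 10 higher and 7 lower, or 60.7 %, close to the share of all genes. The list medians were -0.0046 at rest and -0.02 with stimulation on the log2 scale. With stimulation 16 were called for O2, 7 higher and 9 lower, or 57.1 %, beside 57.4 % of all genes called and 28.4 % lower. The adaptor genes Irs1 and Irs2, whose proteins link IGF1R and the insulin receptor to PI3K, went in opposite directions with low O2. Irs1 had 1886 ± 63.2 in 5 % CTRL and 1150.1 ± 89.7 in 1 % CTRL, with 1456 ± 115 in 5 % STIM and 1301 ± 77.0 in 1 % STIM. It fell with low O2 at rest (-0.72, adjusted p = 2.52e-14) and less so with stimulation (-0.16, adjusted p = 0.00583), and the interaction was 0.55 (adjusted p = 8.43e-07) in limma. Stimulation lowered Irs1 under 5 % O2 (-0.38, adjusted p = 4.76e-07 from limma) and raised it under 1 % O2 (0.18, adjusted p = 0.00703). Irs2 had 113 ± 14.3, 252 ± 14.7, 146 ± 11.3 and 399 ± 24.4 in the same order. It rose with low O2 at rest (1.16, adjusted p = 4.02e-15) and with stimulation (1.44, adjusted p = 1.47e-17), and with stimulation under 5 % O2 (0.38, adjusted p = 0.00032) and 1 % O2 (0.66, adjusted p = 1.81e-08). Gab1, a docking protein of the same pathway, rose in all 4 comparisons, with log2 fold changes of 0.49 (adjusted p = 2.91e-09) and 0.56 (adjusted p = 1.79e-10) for low O2 and of 0.52 (adjusted p = 5.91e-09) and 0.59 (adjusted p = 2.68e-10) for stimulation. Stimulation called 11 genes of this list under 5 % O2, 7 higher and 4 lower, and 8 under 1 % O2, 6 higher and 2 lower, or 39.3 % and 28.6 %, beside 21.4 % and 22.3 % of all genes.

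**Figure D5:**
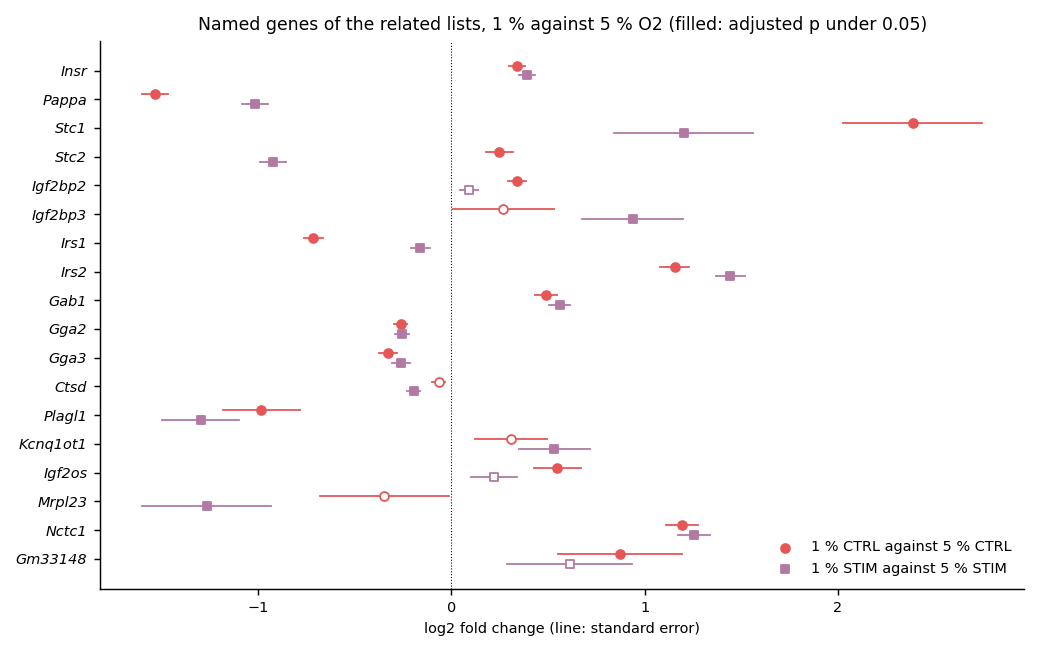
Log2 fold changes for 1 % against 5 % O2 (horizontal axis, lines are standard errors) of the named genes of the related lists, at rest as circles and with stimulation as squares, filled at an adjusted p under 0.05. Pappa lies at -1.53 and -1.02 and Irs2 at 1.16 and 1.44, while Stc2 lies on both sides of 0 at 0.25 and -0.92.

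The list of mannose 6-phosphate sorting, the pathway in which IGF2R carries lysosomal enzymes, had 12 genes tested, of which 4 were called for O2 at rest and 6 with stimulation, all lower under 1 % O2. The share called at rest, 33.3 %, lay below the 59.9 % of all genes called and near the 30.5 % that were lower, and the 6 of 12 with stimulation stood beside 57.4 % called and 28.4 % lower. The list medians were -0.06 and -0.11 on the log2 scale. Gga2 and Gga3, adaptors that bind the tail of the receptor, fell at rest by 0.26 and 0.33 (adjusted p = 7.08e-08 and 1.58e-07 from limma) and with stimulation by 0.26 and 0.26 (adjusted p = 1.35e-07 and 8.99e-06). The cathepsin D gene Ctsd, a cargo enzyme, had 20402 ± 483 in 5 % STIM and 17829.6 ± 945 in 1 % STIM, with a log2 fold change of -0.20 (adjusted p = 5.07e-06), and -0.07 (adjusted p = 0.0879) at rest. Its interaction was -0.13 (adjusted p = 0.0665 from limma). Stimulation gave 0.15 (adjusted p = 0.00105 from limma) under 5 % O2 and 0.02 (adjusted p = 0.784) under 1 % O2.

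Of 20 imprinted genes, 14 were tested and 8 were called for O2 at rest, 4 higher and 4 lower, and 7 with stimulation, 3 higher and 4 lower. These 8 and 7 of 14 stood beside 59.9 % and 57.4 % of all genes. The list medians were 0.04 and -0.01 on the log2 scale. Stimulation called 2 and 4 of the 14, all lower, under 5 % and 1 % O2, or 14.3 % and 28.6 %, beside 21.4 % and 22.3 % of all genes called and 12 % and 10.8 % lower. Plagl1, a zinc finger factor of the imprinted gene network that is known to act on Igf2 and H19, had 41.4 ± 13.1 in 5 % CTRL and 20.4 ± 5.98 in 1 % CTRL, with 48.8 ± 8.47 in 5 % STIM and 19.4 ± 4.04 in 1 % STIM. It fell with low O2 at rest (-0.98, adjusted p = 6.22e-05) and with stimulation (-1.30, adjusted p = 9.59e-07) in limma. Igf2os, transcribed antisense to Igf2, had 49.2 ± 5.52, 72.4 ± 7.13, 36.5 ± 4.31 and 42.8 ± 5.52 in the same order. It rose with low O2 at rest (0.55, adjusted p = 0.000186) and fell with stimulation under both 5 % O2 (-0.42, adjusted p = 0.00984) and 1 % O2 (-0.75, adjusted p = 1.02e-05). In stimulated cultures its response to low O2 was 0.22 (adjusted p = 0.1165 from limma), and the interaction was -0.33 (adjusted p = 0.2306). Reads of Igf2os and Igf2 cannot be told apart where they overlap, which is 1.71 % of Igf2 exon bases. Kcnq1ot1, the non-coding RNA of the next imprinted domain, had 25.3 in 5 % STIM and 37.0 in 1 % STIM (0.53, adjusted p = 0.0139). At rest it gave 0.31 for low O2 (adjusted p = 0.153 from limma), and its interaction was 0.22 (adjusted p = 0.646).

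Within 200 kb of the span from Igf2 to H19 the annotation holds 20 other genes, of which 11 were tested and 4 were called for O2 at rest, 3 higher and 1 lower, and 5 with stimulation, 1 higher and 4 lower. These shares of 36.4 % and 45.5 % lay below the 59.9 % and 57.4 % of all genes. The list medians were 0.01 and 0.01 on the log2 scale, and Ctsd and Igf2os belong to this list as well as to another. Nctc1, a non-coding transcript of skeletal muscle that lies between H19 and Mrpl23, changed with low O2 in the direction opposite to Igf2. It had 114 ± 11.9 in 5 % CTRL and 261 ± 14.7 in 1 % CTRL, with 94.9 ± 9.34 in 5 % STIM and 228 ± 24.2 in 1 % STIM. Low O2 raised it by 1.19 (adjusted p = 1.51e-14) at rest and by 1.25 (adjusted p = 5.3e-15) with stimulation in limma. Its response to stimulation was -0.26 (adjusted p = 0.021 from limma) under 5 % O2, where Igf2 was lower as well. Under 1 % O2 that response was -0.20 (adjusted p = 0.0807 from limma). Gm33148, a non-coding gene between H19 and Igf2, had 9.76 and 18.4 counts in 5 % CTRL and 1 % CTRL (0.87, adjusted p = 0.0197), and Mrpl23, a mitochondrial ribosomal protein gene, had 33.2 and 13.1 in 5 % STIM and 1 % STIM (-1.27, adjusted p = 0.00198). With stimulation the value of Gm33148 was 0.61 (adjusted p = 0.104 from limma). At rest Mrpl23 had means of 24.4 in 5 % CTRL and 24.3 in 1 % CTRL (-0.35, adjusted p = 0.384 from limma), with 1 library of 1 % CTRL at 68.8. The interaction was not called for Gm33148 (adjusted p = 0.775 from limma) or for Mrpl23 (adjusted p = 0.231). Both genes rest on few counts.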

How the data were processed

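RNA of 24 cultures of C2C12 myotubes was sequenced by the authors from stranded mRNA libraries (single end), checked with FastQC 0.11.7, aligned to GRCm38 with STAR 2.5.4b and quantified per gene with RSEM 1.3.0 at its defaults, so that strand was ignored. The authors scaled these gene counts by DESeq2 size factors and deposited the resulting signal, called the normalized count here. A second deposited table holds the authors' own log2 fold changes and p-values and was not used. Groups were taken from the labels, and the 10 genes were matched by symbol through GENCODE M21 identifiers, which covered 99.5 % of the genes listed. The genes, lists and tests were chosen with earlier results of these data known.

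Log2(normalized count + 1) of genes with at least 10 in at least 6 libraries entered 1 limma fit (R 4.3.3, limma 3.58.1, trend and robust) of all groups. Adjustment was by Benjamini-Hochberg across the 14541 genes tested, with a threshold of 0.05. Folds on this scale understate changes of low genes. Whole reads were recovered for 100 % of values (tolerance 1e-06) and tested with edgeR 4.0.16, DESeq2 1.42.0 and limma voom as alternatives. On these reads edgeR called 8744 genes for O2 at rest, 3097 for stimulation under 5 % O2, 8384 for O2 with stimulation, 3347 for stimulation under 1 % O2 and 1660 for the interaction. Other alternatives were a pseudocount of 10, no filter, the replicate number as a block, a threshold of 0.01, a rescaling of libraries to the same total, a fit of the compared groups alone, each library left out in turn and, chosen after seeing the data, the slope of each library on exon length as a covariate. The fit was tested on simulated data in which far fewer genes were changed than were called here for O2, and in 1 % CTRL alone. That test therefore does not gauge false calls where most genes change. Levels per kb used merged exon length. Named genes are the 10 members, up to 3 called genes with the largest change of each of 7 lists, and the 3 genes most correlated with each member, which for Igfbp3 are not reported here. Figures were drawn with matplotlib 3.10.9.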

Additional observations from a re-analysis of the deposited data

Results flagged for a closer look

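Of the 40 groups of 6 values of the 10 genes, 3 held a library far from the others by Dixon's criterion, which chance meets in about 1 in 20 groups. H19 had 234489 normalized counts in replicate 1 of 1 % CTRL, where the other libraries of the group held 294921 to 320790. Igf2r had 6946 in replicate 1 of 5 % CTRL, against 6288 to 6524 in the others. Igfbp3 had 619.9 in replicate 1 of 5 % STIM, against 503 to 545 in the others.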

How the results depend on the processing

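Counts of the 10 genes called for O2 ranged from 6 to 7 at rest and from 6 to 9 with stimulation over all alternatives, and Igf1, Igf2, Igf1r, Igf2r, Igfbp4 and Igfbp5 were called in both with any 1 of the 24 libraries left out. Apart from fits with single libraries left out, all genes called ran from 7384 to 9075 at rest and from 7018 to 8652 with stimulation. For stimulation under 5 % O2 the count of 1 became 0 at a threshold of 0.01 and with edgeR, 2 with the compared groups alone, 3 with the length slope as a covariate, and 0 to 2 with single libraries left out. It was 2 without replicate 1 of 1 % CTRL. Of all genes, 3097, 3318 and 3561 were called there with edgeR, the compared groups alone and the length slope, in place of 3115. For stimulation under 1 % O2 the count of 0 became 1 with the compared groups alone, 2 after rescaling, 1 with the length slope, and 0 to 2 with single libraries left out, 2 being without replicate 1 of 1 % CTRL. Of all genes, 2949, 3433 and 3736 were called there with the compared groups alone, rescaling and the length slope, in place of 3245. For the interaction the count of 0 became 1 with the length slope and 0 to 1 with single libraries left out, 1 being without replicate 1 of 1 % CTRL. With the length slope 1800 of all genes were called for the interaction, in place of 1645. At a threshold of 0.01, 1944 of all genes were called for stimulation under 5 % O2 and 830 for the interaction, in place of 3115 and 1645. The interaction could not be fitted with the compared groups alone, since it needs all 4.

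Replicate numbers are shared between groups, but deviations of same-numbered libraries from their group means had correlations of -0.148 to 0.155, with at most 1 of 6 pairs over 0.1, so the numbers were not taken as a pairing, and 0 to 2 of 6 libraries correlated best with their own number. With the replicate number as a block the counts were 6, 1, 8, 1 and 0 for O2 at rest, stimulation under 5 % O2, O2 with stimulation, stimulation under 1 % O2 and the interaction, the added call being Igf1 (adjusted p = 0.0329 from limma). All genes called with the block were 8730, 3190, 8350, 3320 and 1710 in that order, in place of 8708, 3115, 8346, 3245 and 1645.

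Of 490 values of single genes under alternatives, 458 kept their direction and side of the threshold, 6 lost and 14 gained a call, and 12 changed sign, none of these past the threshold. After rescaling to the same total, log2 values of the other sign were 0.025 for Igf1 (stimulation under 5 % O2), 0.0029 for Igf2 (stimulation under 1 % O2), 0.017 for H19 (O2 at rest), 0.017 for Igf2r (stimulation under 5 % O2), 0.017 for Igfbp2 (stimulation under 1 % O2), 0.014 for Igfbp3 (stimulation under 5 % O2) and 0.048 for Igfbp3 (O2 with stimulation). With the length slope they were 0.013 for Igf1 (stimulation under 5 % O2), 0.0092 for H19 (the interaction), 0.027 for Igf2r (stimulation under 5 % O2), 0.021 for Igfbp2 (stimulation under 1 % O2) and 0.038 for Igfbp7 (the interaction). With 1 library left out the log2 values ran from -0.0464 to 0.0299 for Igf1 (stimulation under 5 % O2, sign changed without replicate 2 of 5 % STIM), -0.0938 to 4.6e-05 for H19 (O2 at rest, sign changed without replicate 1 of 1 % CTRL), -0.0235 to 0.00518 for Igf2r (stimulation under 5 % O2, sign changed without replicate 1 of 5 % CTRL), -0.0533 to 0.0272 for Igfbp2 (stimulation under 1 % O2, sign changed without replicate 4 of 1 % STIM), -0.00667 to 0.00880 for Igfbp3 (O2 at rest, sign changed without replicate 2 of 5 % CTRL), -0.0572 to 0.00304 for Igfbp3 (stimulation under 5 % O2, sign changed without replicate 5 of 5 % STIM), -0.0617 to 0.0178 for Igfbp3 (O2 with stimulation, sign changed without replicate 1 of 5 % STIM), -0.0630 to 0.0165 for Igfbp3 (the interaction, sign changed without replicate 1 of 5 % STIM), -0.00601 to 0.0770 for Igfbp4 (stimulation under 1 % O2, sign changed without replicate 1 of 1 % CTRL), -0.155 to 0.0250 for Igfbp4 (the interaction, sign changed without replicate 4 of 5 % STIM) and -0.00417 to 0.0377 for Igfbp5 (the interaction, sign changed without replicate 6 of 1 % CTRL). The causes were not tested. Depth limits Igfbp4 and the genes of few counts most.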
